A study of Mus musculus with 44 samples.

Results

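The glucocorticoid receptor system was followed here through 8 genes in hippocampal cells of the Emx1 lineage from mice that ran in early life and from sedentary mice. Both receptors for corticosterone (Nr3c1 and Nr3c2), 4 of their target genes (Fkbp5, Sgk1, Tsc22d3 and Zbtb16), the enzyme that regenerates the hormone inside cells (Hsd11b1) and the receptor for corticotropin-releasing hormone (Crhr1) were chosen by name. All 8 were found among the 55335 gene rows of the translating ribosome affinity purification sequencing (TRAP-seq) count table, and all 8 passed the filter on low counts in every comparison. The mice were Emx1-NuTRAP animals, in which Cre made from the Emx1 locus switches on a tagged ribosomal protein, so that RNA on ribosomes can be pulled out of cells in which Emx1 has been active. These are mostly excitatory forebrain neurons, with some glia and progenitors of the same lineage. Mice with early-life exercise (ELE) could run on a wheel at will between postnatal days 21 and 41, and sedentary mice of the same genotype had no wheel. RNA came either from both hippocampi, with nuclei and ribosomes isolated together (SIT, 4 ELE and 4 sedentary libraries), or from 1 hippocampus alone, left (3 ELE, 3 sedentary) or right (3 ELE, 3 sedentary). No gene in these mice was deleted, and neither corticosterone nor running distance was part of the count table.

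Corticosterone crosses the blood-brain barrier and binds 2 receptors in hippocampal neurons. The mineralocorticoid receptor, made from Nr3c2, has the higher affinity and is largely occupied at resting hormone levels, whereas the glucocorticoid receptor, made from Nr3c1, fills during stress, exercise and the daily hormone peak. Bound receptors move to the nucleus and switch target genes on. Among these, Fkbp5 encodes a co-chaperone that lowers the receptor's affinity for its hormone and so closes a short feedback loop.

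Libraries are named by mouse number. The 20 libraries held 45895097 to 65767802 counted read pairs, and each member had between 320 (the lowest Crhr1 count) and 18515 (the highest Nr3c2 count) of them in a library. Excitatory neuron markers (8 genes, none at 0 in any library) summed to between 10010 and 14140 CPM (counts scaled to a common library size) in all 20. Following the study, 3 SIT libraries were left out of the main comparison, ELE mouse NT6.304 and, among sedentary mice, NT7.2.3 with NT7.2.4. Mitochondrial transcripts made up 8.64 to 9.64% of counts in those 2 sedentary libraries and at most 0.523% in the 17 libraries compared. Inhibitory neuron markers summed to at most 81.9 CPM, and microglial markers to at most 8.43 CPM, in the 17 libraries, against highs of 898 and 222 CPM among the sedentary SIT libraries left out. Every TG7.4 mouse in SIT had run and no NT7.2 mouse had, so there the mouse number and exercise cannot be told apart except among the NT6 mice. Such RNA is a bulk sample, in which fewer cells of a type and less RNA per cell cannot be told apart.

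Receptor dimers recognize a palindrome of 2 half-sites, AGAACA and its reverse complement, with a spacer of 3 bases (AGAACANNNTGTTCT). RefSeq promoter windows (GRCm38.p6, 250 bases before to 50 after a transcript start) were searched for both on either strand, to show where such letters lie in the members. Windows were matched for 6 members, 13 windows in all, and Nr3c1 and Zbtb16 were not searched here. The full palindrome was in 3 of 32851 windows of the genome (0.00913%), and 1 of these was a start of Sgk1, at chr10:21993694-21993723 on the plus strand, with 174 bases between the palindrome and the start. A half-site alone was in 19% of all windows and in 4 of the 13, those of Sgk1 and Tsc22d3. Further Sgk1 half-sites, in the stretches chr10:21992198-21992227 and chr10:21993640-21993669, are not shown. These 30-base stretches are shown as examples because Sgk1 and Tsc22d3 are the members whose searched windows held a half-site, with half-sites in capitals.
Sgk1, chr10:21993694-21993723, plus strand: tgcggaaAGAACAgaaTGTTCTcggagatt
Sgk1, chr10:21881977-21882006, plus strand: aagggaatccgtTGTTCTgtgttttctgtg
Tsc22d3, chrX:140600690-140600719, minus strand: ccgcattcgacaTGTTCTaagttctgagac
A match says only that these letters are present, since no binding was measured, and the windows of Nr3c2, Fkbp5, Hsd11b1 and Crhr1 held no half-site.

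Per kilobase of exon, the mineralocorticoid receptor transcript stood far above the other 7. Nr3c2 (gene at chr8:76899442-77245012 in GRCm38, as for the coordinates that follow) averaged 36.7 RPKM (CPM divided by the exon length in kilobases) ± 6.09 (SD, n = 20 libraries), with a range of 28.6 to 51.0, and was above the next gene in 20 of 20 libraries. Sgk1 (chr10:21882184-21999903) followed at 12.97 RPKM ± 2.05, also above the next gene in 20 of 20. Below it Nr3c1 (chr18:39410545-39519421) at 9.32 RPKM, Tsc22d3 (chrX:140539528-140600659) at 8.73, Zbtb16 (chr9:48654297-48836222) at 8.80 and Fkbp5 (chr17:28399094-28517527) at 7.42 had overlapping ranges. Nr3c1 was above Tsc22d3 in 14 of 20 libraries, Tsc22d3 above Zbtb16 in 8, Zbtb16 above Fkbp5 in 14 and Fkbp5 above Hsd11b1 in 12, so the order of these neighbors was not fixed. Hsd11b1 (chr1:193221634-193264075) averaged 6.71 RPKM, and Crhr1 (chr11:104132855-104175523) was lowest at 4.14 RPKM, below Hsd11b1 in 20 of 20 libraries.

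**Figure D1:**
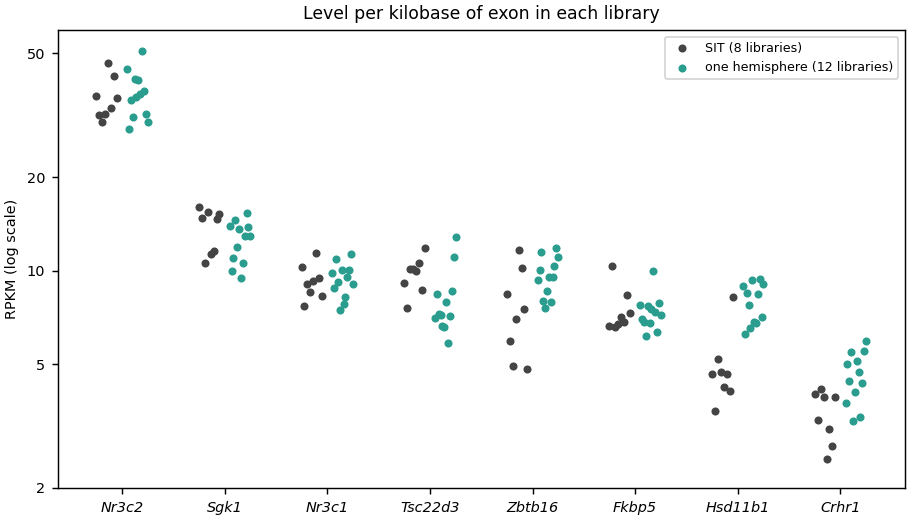
Level of each gene per kilobase of exon (RPKM, log scale), 1 point per library, for the 8 SIT libraries and the 12 libraries from 1 hemisphere, with genes ordered by mean log2 level. Nr3c2 lies between 28.6 and 51.0 RPKM, above every other gene in every library, and Hsd11b1 is lower in 7 of the 8 SIT libraries than in any library from 1 hemisphere.

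The glucocorticoid receptor transcript itself did not pass the study's call rule, an unadjusted p below 0.05 together with an absolute log2 fold change above 0.3875, in any setting. In SIT, Nr3c1 was at 78.8, 72.7 and 63.9 CPM in the ELE libraries and at 69.7 and 65.6 CPM in the sedentary libraries. The left hippocampus gave 67.8, 63.2 and 77.3 CPM in ELE and 70.5, 77.4 and 69.8 CPM in sedentary mice, and the right gave 75.3, 60.2 and 73.5 against 83.8, 57.6 and 86.8 CPM. The groups overlapped in all 3 settings. The log2 fold change of ELE over sedentary was 0.08 in SIT (SE 0.12), -0.06 in the left (SE 0.10) and -0.13 in the right hippocampus (SE 0.16), with edgeR p-values, adjusted by Benjamini-Hochberg over all genes tested, of 0.999, 0.966 and 0.9998. The right value depended on single libraries. Without sedentary TG9.1.1 (57.6 CPM) it was -0.30 (SE 0.11), with an unadjusted p below 0.05 and a fold too small for the rule. With each library left out in turn it ranged from -0.30 to -0.02. Over both hemispheres the 95% confidence interval of the fold ran from 0.812 to 1.08.

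The mineralocorticoid receptor transcript was the member that came nearest to a difference. In SIT, Nr3c2 was at 237, 274 and 233 CPM in the ELE libraries and at 194 and 207 CPM in the sedentary ones, so the groups did not overlap, as was true of 22.1% of all genes tested there. In the right hippocampus it was at 288, 265 and 330 CPM in ELE and at 230, 267 and 206 CPM in sedentary mice, where 1 sedentary value lay just above the lowest ELE value. In the left hippocampus it was at 185, 240 and 246 CPM in ELE and at 202, 234 and 195 CPM in sedentary mice, with full overlap. ELE over sedentary was 1.24-fold in SIT (log2 0.30, SE 0.10, 95% interval 1.05 to 1.45 fold), 1.26-fold in the right hippocampus (log2 0.33, SE 0.11, 1.05 to 1.503 fold) and 1.06-fold in the left (log2 0.09, SE 0.12, 0.883 to 1.28 fold). None of these passed the call rule. In SIT and on the right the unadjusted p was below 0.05 and the fold too small. The edgeR p-values adjusted over all genes tested were 0.905 in SIT, 0.9998 on the right and 0.965 on the left. The difference between hemispheres was itself not beyond its error (left minus right log2 -0.24, SE 0.17, 95% interval -0.62 to 0.13).

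A background of small unadjusted p-values was present in every comparison. An unadjusted p below 0.05 was reached by 5.48% of genes tested in SIT, 3.94% in the left and 2.78% in the right hippocampus, and by 1, 0 and 1 of the 8 members. Over both hemispheres together, Nr3c2 was 1.16-fold higher in ELE (log2 0.21, SE 0.09, 95% interval 1.01 to 1.32 fold, edgeR adjusted p = 0.924), where 5.31% of genes had a p below 0.05, and an exact permutation of exercise labels within hemispheres, 2-sided over 400 arrangements, gave p = 0.11 for it. In the right hippocampus Nr3c2 passed the call rule when either overlapping library was left out, at a log2 difference of 0.43 without sedentary TG9.1.1 and 0.40 without ELE TG9.1.3. With each library left out in turn, that difference went as low as 0.24, short of the fold limit. The SIT value rested on which libraries entered. Among the NT6 mice alone (2 ELE, 2 sedentary) the log2 difference was 0.13, and over all 8 SIT libraries it was 0.04 (SE 0.15), with the sedentary libraries left out at 301 and 217 CPM and the ELE library left out at 205 CPM.

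Markers of several cell types also moved in these comparisons. Choroid plexus markers (8 genes, 4 of them at 0 in some library) summed to 18.8 to 45.4 CPM in right ELE and 37.4 to 1171 CPM in right sedentary mice, where 7 were tested, all were lower in ELE and 5 passed the call rule, as did 1.97% of all genes tested there. In SIT the same list summed to 131 to 581 CPM in ELE and 592 to 674 CPM in sedentary libraries. There 6 of its 8 genes were lower and 2 higher in ELE, and 3 passed the rule, all lower, beside 3.65% of all genes tested. On the left all 8 choroid plexus markers were lower in ELE (median log2 -0.86) and none passed the rule, which 2.07% of all genes tested there did. Endothelial markers on the right were lower in ELE in 8 of 8, with 3 past the rule (median -1.83, summed levels 3.8 to 5.38 against 4.52 to 35.7 CPM, 3 genes at 0 in some library). In right sedentary mice the median sums were 6.055 CPM for this list and 87.6 CPM for the choroid plexus list. A single library thus set the high end of each. Inhibitory neuron markers were lower in ELE in 7 of 8 in SIT, with 2 past the rule (median -0.37), and higher in 7 of 8 on the right, with 1 past it (median 0.48). Dentate granule markers in SIT were higher in ELE in 4 of 6 and lower in 2 (median log2 0.30), with 2 past the rule, both higher. CA2 and CA3 markers summed to 451 to 492 CPM in right ELE against 401 to 461 CPM in right sedentary mice, and to 444 to 525 against 421 to 441 CPM in SIT. On the right this list was split, with 3 of its 6 genes higher and 3 lower in ELE (median log2 fold change 0.04). Bok, its gene past the rule upward there, went from 143 to 188 CPM (log2 0.40), and Amigo2, past it downward, from 24.8 to 17.8 CPM (log2 -0.48). The part of these cells in the Nr3c2 values was not tested.

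Because both receptors bind the same hormone, their transcripts were also compared within each library. The ratio of Nr3c2 to Nr3c1 RPKM was 4.0 ± 0.825 (SD, n = 20) with a range of 2.82 to 5.51. In the right hippocampus it was 5.03 ± 0.425 (n = 3) in ELE and 3.86 ± 1.44 (n = 3) in sedentary mice, and in the left 3.84 ± 0.637 and 3.43 ± 0.145 (n = 3 each). The compared SIT libraries gave 4.13 ± 0.487 (n = 3) in ELE and 3.53 ± 0.301 (n = 2) in sedentary mice. The groups overlapped in all 3, and the highest ratio of all, 5.51, belonged to sedentary right hippocampus mouse TG9.1.1.

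**Figure D2:**
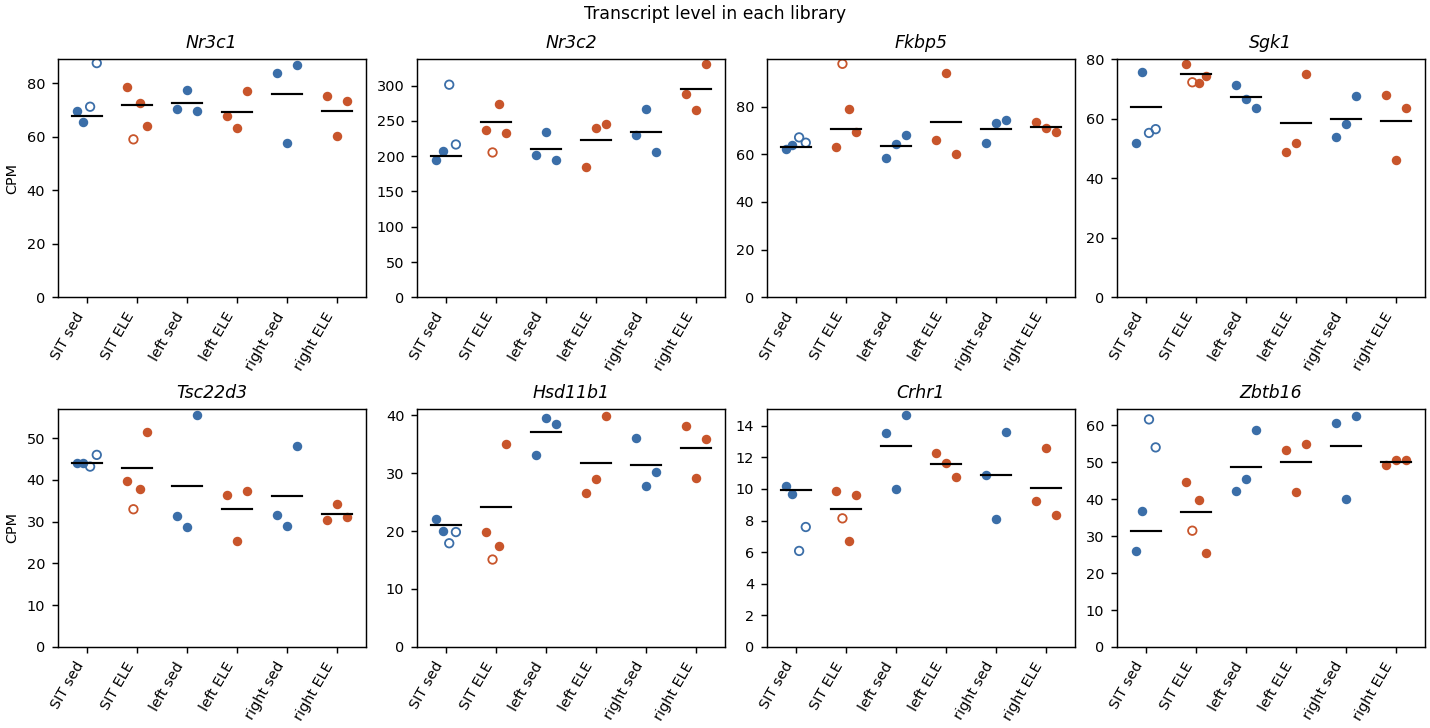
Level in CPM of each gene in each library, by isolation and group (sed, sedentary). Filled points are libraries the study compared, open points are the 3 SIT libraries it left out, and the bar is the mean of the filled points. ELE and sedentary points overlap for every gene and setting except Nr3c2 in SIT, where the filled ELE points (233 to 274 CPM) lie above the filled sedentary points (194 and 207 CPM).

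The direct targets of the receptors gave no common direction. Fkbp5, the co-chaperone of the feedback loop, was at 63.1, 79.0 and 69.4 CPM in SIT ELE and at 62.2 and 63.7 CPM in SIT sedentary libraries. In the left hippocampus it was at 66.0, 94.3 and 59.9 CPM in ELE and at 58.4, 64.3 and 68.1 CPM in sedentary mice, and in the right at 73.6, 71.1 and 69.5 against 64.7, 73.0 and 74.4 CPM. A single left library, mouse TG9.1.4 at 94.3 CPM, stood above all the others from 1 hemisphere. ELE over sedentary gave a log2 fold change of 0.16 in SIT (SE 0.12), 0.21 in the left (SE 0.16) and 0.02 in the right hippocampus (SE 0.09), with edgeR adjusted p-values of 0.973, 0.960 and 0.9998. Without TG9.1.4 the left value was -0.0026, and over both hemispheres the interval of the fold was 0.94 to 1.24.

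Sgk1, a kinase that regulates ion channels and transporters, pointed in different directions in the 2 isolations. Its ELE levels in SIT were 78.5, 72.0 and 74.4 CPM, and its sedentary levels were 51.8 and 75.9 CPM, so 1 sedentary library lay within the ELE range and the other far below it. In the left hippocampus it was at 48.8, 51.7 and 75.0 CPM in ELE and at 71.6, 66.6 and 63.6 CPM in sedentary mice, where 2 ELE libraries were below every sedentary one and the third above. In the right, 68.1, 46.3 and 63.6 CPM in ELE stood against 53.9, 58.4 and 67.6 CPM. In that order of settings its log2 fold changes were 0.23 (SE 0.15), -0.20 (SE 0.16) and -0.01 (SE 0.14), each with a 95% interval that held 0. A single library decided its call on either side. Without sedentary NT6.306 the SIT value was 0.53, past the call rule, and without sedentary NT6.305 it was -0.02, and in the left hippocampus without ELE TG9.2.2 it was -0.41, also past it.

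Tsc22d3, which encodes the anti-inflammatory protein GILZ, varied more between mice of a group than between groups. In SIT it was at 39.6, 37.7 and 51.5 CPM in ELE and at 44.0 and 44.1 CPM in sedentary libraries. In the left hippocampus the ELE values were 36.5, 25.3 (mouse TG9.1.4, the lowest of the 12 libraries from 1 hemisphere) and 37.4 CPM against sedentary values of 31.3, 28.6 and 55.5 CPM, and in the right 30.5, 34.3 and 31.0 CPM lay among 31.5, 28.9 and 48.1 CPM. The sedentary mice TG9.2.4 on the left and TG9.2.3 on the right held the high values. Exercise went with log2 fold changes of -0.04 (SE 0.15), -0.21 (SE 0.26) and -0.18 (SE 0.18), and turned to 0.15 on the left and 0.09 on the right without those mice.

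Zbtb16, a zinc-finger transcription factor induced by glucocorticoids in many cell types, also had overlapping groups throughout. It was at 44.6, 39.6 and 25.5 CPM in SIT ELE and at 26.1 and 36.9 CPM in SIT sedentary libraries. The left hippocampus gave 53.2, 41.8 and 54.9 CPM in ELE against 42.1, 45.5 and 58.6 CPM, and the right gave 49.3, 50.5 and 50.6 against 60.5, 40.1 and 62.6 CPM. Right ELE mice were tightly grouped within the sedentary range, whose low end was TG9.1.1 at 40.1 CPM. For SIT, left and right the log2 fold changes were 0.21 (SE 0.23), 0.04 (SE 0.15) and -0.12 (SE 0.15), and without TG9.1.1 the right value was -0.30 (SE 0.10), with an unadjusted p below 0.05 and a fold short of the limit. With each library left out in turn the right value ranged from -0.30 to -0.0029. The sedentary SIT libraries left out were high, at 61.6 and 54.0 CPM, and over all 8 SIT libraries the value was -0.34 (SE 0.27), whereas the main value was 0.41 without ELE TG7.4.2, past the call rule, and -0.02 without sedentary NT6.305.

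Hsd11b1 encodes the enzyme that turns inactive 11-dehydrocorticosterone back into corticosterone within the cell. In SIT it was at 19.8, 17.4 and 35.0 CPM in ELE and at 22.04 and 20.1 CPM in sedentary libraries, where ELE mouse TG7.4.2 alone was high. In the left hippocampus it was at 26.6, 28.9 and 39.9 CPM in ELE and at 33.1, 39.5 and 38.5 CPM in sedentary mice, and in the right at 38.1, 29.1 and 35.9 against 36.0, 27.8 and 30.3 CPM. Its log2 fold changes were 0.19 (SE 0.27), -0.22 (SE 0.15) and 0.13 (SE 0.14), and the left minus right difference was -0.35 (SE 0.22, 95% interval -0.82 to 0.12). Without ELE mouse TG9.2.2 the left value was -0.41 and the left minus right difference -0.55, both past the call rule, and without TG7.4.2 the SIT value was -0.19. Hsd11b1 was also the member whose level differed most between isolations, at 20.9 CPM ± 6.08 (SD, n = 8) in SIT and 33.6 CPM ± 4.92 (n = 12) from 1 hemisphere. TG7.4.2 was the only SIT library within the range of the others, the next being at 22.04 CPM, and isolation cannot be told apart from the mice, which differed. Its gene overlaps Lamb3 on the opposite strand, as Nr3c2 and Fkbp5 overlap antisense RNAs, and counting was by strand.

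Crhr1, through which corticotropin-releasing hormone acts on neurons, was the least abundant member. In SIT it was at 9.9, 6.7 and 9.62 CPM in ELE and at 10.2 and 9.65 CPM in sedentary libraries. The left hippocampus gave 12.3, 11.6 and 10.7 CPM in ELE against 13.5, 9.99 and 14.7 CPM, and the right gave 9.25, 12.6 and 8.35 against 10.9, 8.09 and 13.6 CPM. Every set of groups overlapped. The log2 fold changes were -0.19 (SE 0.22), -0.14 (SE 0.16) and -0.11 (SE 0.22), with edgeR adjusted p-values of 0.993, 0.964 and 0.9998. This direction held with each library left out in turn in SIT and on the left. The value shrank to -0.02 in SIT without ELE TG7.4.1 and to -0.02 on the left without sedentary TG9.2.4. On the right it turned to 0.09 without sedentary TG9.2.3, and over all 8 SIT libraries the value was 0.031.

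No member passed the call rule in any comparison by edgeR, and none did by DESeq2. The rule was met by 3.65% of genes tested in SIT, 2.07% in the left and 1.97% in the right hippocampus, 2.01% over both hemispheres and 2.2% for the difference between hemispheres. At an unadjusted p below 0.05 the count of members was 1 in SIT, 0 in the left, 1 in the right and 1 over both hemispheres, in each case Nr3c2, and 0 for the difference between hemispheres, by either tool. Over all 8 SIT libraries the rule was met by 7.7% of genes and an unadjusted p below 0.05 by 9.07%, and of the members Sgk1 alone had such a p (log2 0.31, SE 0.14, edgeR adjusted p = 0.545), short of the fold limit. In SIT 6 members were higher and 2 lower in ELE, with a median log2 fold change of 0.18 beside 0.00 over all genes tested. In the left hippocampus 3 were higher and 5 lower (median -0.10 beside 0.00), and in the right 3 and 5 (median -0.06 beside -0.00). Non-overlapping groups were found for 10.7% of genes tested on the left and 7.66% on the right, and for 0 members. Exact permutation over both hemispheres gave p-values of 0.11 for Nr3c2 and 0.365 to 0.815 for the other 7, where 0.005 was the smallest possible. These spreads set what could have been seen. Over both hemispheres the 95% intervals of Fkbp5 (up to 1.24 fold), Sgk1 (up to 1.10), Tsc22d3 (up to 1.12) and Zbtb16 (up to 1.16) contained no increase as large as the fold limit of the call rule, whereas in SIT those of Nr3c2, Fkbp5, Sgk1, Hsd11b1 and Zbtb16 reached past it.

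**Figure D3:**
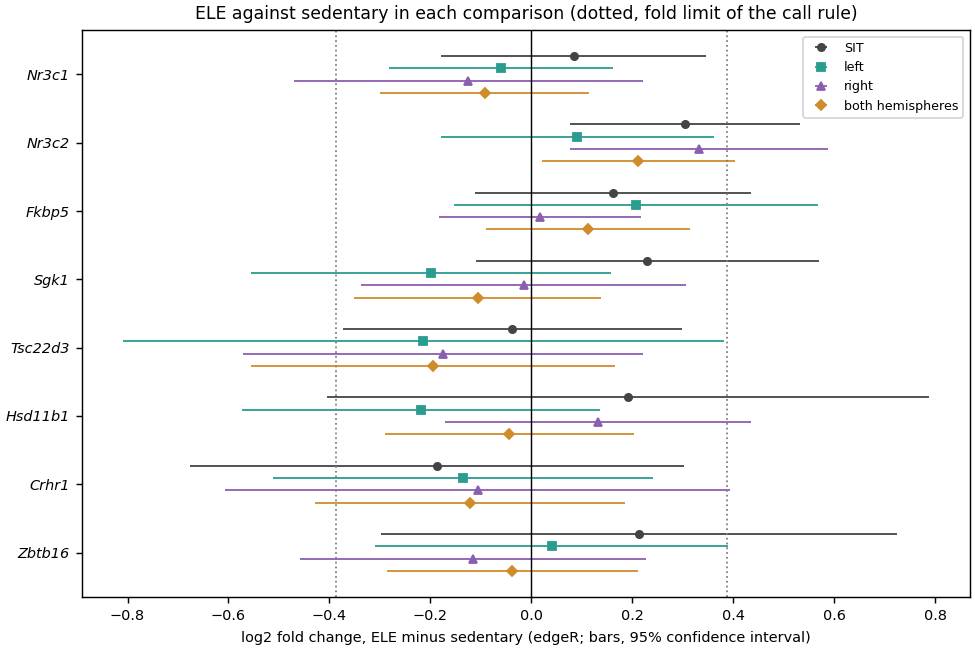
Log2 fold change of ELE over sedentary for each gene in SIT (3 ELE, 2 sedentary), the left and the right hippocampus (3 and 3 each) and both hemispheres together (6 and 6), from edgeR, with 95% confidence intervals; dotted lines mark the fold limit of 0.3875. All points lie inside the dotted lines, and only the intervals of Nr3c2 in SIT, in the right hippocampus and over both hemispheres exclude 0.

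Although exercise did not separate them, some members varied together between mice. After each group's mean was subtracted from log2(CPM + 0.5) in the 12 libraries from 1 hemisphere, all 28 pairs of members were correlated, with libraries permuted within groups in all 1296 ways. Nr3c2 and Crhr1 varied inversely, with Pearson r = -0.84 and Spearman rho = -0.90 (exact permutation p = 0.000772 for each, the smallest these arrangements can give, and 0.0216 after Benjamini-Hochberg adjustment over 28 pairs). Without the 2 libraries farthest from the median of Nr3c2, r was -0.91. The libraries lowest in Nr3c2 for their group, such as sedentary TG9.2.3 (206 CPM) and ELE TG9.1.3 (265 CPM), had 13.6 and 12.6 CPM of Crhr1, and the highest, such as sedentary TG9.1.1 (267 CPM) and ELE TG9.2.1 (330 CPM), had 8.09 and 8.35 CPM.

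Other pairs did not pass the adjustment. Tsc22d3 and Zbtb16 varied in the same direction (r = 0.81, rho = 0.84, exact permutation p = 0.0108 and 0.0116, adjusted 0.151 and 0.162; r = 0.70 without the 2 farthest libraries). Nr3c1 and Hsd11b1 also did (r = 0.69, rho = 0.70, p = 0.0301 and 0.0394, adjusted 0.281 and 0.367). The remaining 25 pairs had unadjusted p-values above 0.05, among them Nr3c1 with Fkbp5 (r = -0.35, exact permutation p = 0.241) and Nr3c1 with Nr3c2 (r = -0.12, p = 0.781). Mouse numbers sharing a first part hold 4 of these libraries each, too few for a correlation within them.

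Summed marker levels were set beside the members in the same way, and no pair passed the adjustment. The summed level of CA2 and CA3 pyramidal cell markers (6 genes, none at 0, 397 to 509 CPM over the 12 libraries) had r = 0.83 and rho = 0.82 with Nr3c2 (exact permutation p = 0.01 and 0.017) and r = -0.63 and rho = -0.76 with Crhr1 (p = 0.0108 for each). Without the 2 libraries farthest from the median of the markers, these r were 0.83 and -0.94. With Tsc22d3 the same markers had r = -0.73 and rho = -0.80 (p = 0.00849 and 0.00694). Inhibitory neuron markers had r = -0.71 and rho = -0.78 with Tsc22d3 (exact permutation p = 0.0162 and 0.00154, adjusted 0.272 and 0.136) and r = -0.66 with Crhr1 (p = 0.0417, adjusted 0.362). Astrocyte markers had r = 0.79 with Nr3c2 (p = 0.0347, adjusted 0.362), and microglial markers r = -0.72 with Zbtb16 (p = 0.00772, adjusted 0.238). Dentate granule and oligodendrocyte markers had r = 0.76 and 0.57 with Hsd11b1 (exact permutation p = 0.0185 and 0.0347, adjusted 0.272 and 0.362). Striatal and microglial markers had r = -0.67 and -0.59 with Nr3c1, and microglial markers r = -0.57 with Tsc22d3 (exact permutation p = 0.0478, 0.0432 and 0.0494, adjusted 0.362 for each). Each sum is weighted toward its most abundant genes, such as Bok (188 CPM on average in right ELE) in the CA2 and CA3 list. Over the 88 pairs of 8 members and 11 marker lists, a family added after the first correlations were seen, no adjusted permutation p was below 0.05 (0.238 for each Pearson r of the CA2 and CA3 markers above, and 0.299, 0.238 and 0.226 for their rho). The part of cell make-up in the inverse pair was not tested.

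**Figure D4:**
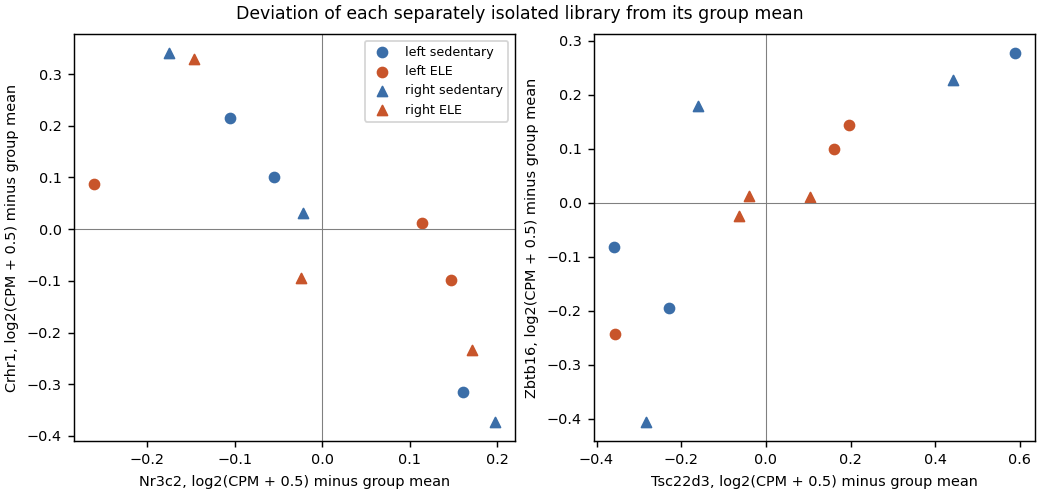
Deviation of each of the 12 libraries from its group mean, in log2(CPM + 0.5), for Nr3c2 against Crhr1 (left panel) and Tsc22d3 against Zbtb16 (right panel); circles are left and triangles right hippocampus, orange ELE and blue sedentary. The points fall from upper left to lower right for Nr3c2 and Crhr1 (r = -0.84) and rise for Tsc22d3 and Zbtb16 (r = 0.81).

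Over the same 12 libraries without subtraction of group means, the genes whose log2(CPM + 0.5) followed each member most closely were sought among the 14118 genes averaging 1 CPM or more. The closest were Dgkz, a diacylglycerol kinase, for Nr3c2 (r = 0.98), Arfgef3 for Nr3c1 (r = 0.96), Pdcd6ip for Fkbp5 (r = 0.96), Plekhh1 for Hsd11b1 (r = 0.93) and Mpv17 for Sgk1 (r = 0.92). Gm37885, annotated as an antisense RNA, came first for Tsc22d3 (r = 0.92), Lonrf3 for Zbtb16 (r = 0.90) and Ipcef1 for Crhr1 (r = 0.88). Second in line were AI593442 for Nr3c2 (r = 0.94), Pds5b for Nr3c1 (r = 0.94), Sdk2 for Fkbp5 (r = 0.92), Itgb4 for Hsd11b1 (r = 0.91) and Ptdss2 for Tsc22d3 (r = 0.91). Naglu for Sgk1 (r = 0.89), Slc9a3r2 for Crhr1 (r = 0.87) and Gm26512 for Zbtb16 (r = 0.87) completed them. No member was among the closest genes of another, and values this high are the largest of many over only 12 points.

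Around the 8 members, the wider pathway was read from 4 lists. Of 20 receptor chaperones and coregulators, all tested, 1 passed the call rule in SIT, where 3.65% of all genes tested did, and none in either hemisphere. This was Nr2f2, an orphan nuclear receptor that binds the glucocorticoid receptor, which fell in SIT from 54.0 CPM ± 11.3 (n = 2) to 37.3 CPM ± 4.15 (n = 3; log2 -0.54, SE 0.15, edgeR adjusted p = 0.905), but without sedentary NT6.305 was at -0.30 and no longer past the rule. It was past the rule over all 8 SIT libraries (-0.79) and among NT6 mice (-0.90), and with no library left out singly its adjusted p ranged from 0.0375, without the filter on low counts, to 0.905. Over all 8 SIT libraries inhibitory neuron markers were also past the rule and lower in ELE, in 8 of 8 (median log2 -3.55), beside 7.7% of all genes tested. Their part in the Nr2f2 value was not tested. The heat-shock proteins that hold the unliganded receptor were abundant and nearly level, with Hsp90ab1 at 1350 CPM on average in SIT and a log2 difference of -0.08, and Hsp90aa1 at 768 CPM and -0.03, and on the left Hsp90aa1 had a log2 difference of 0.16 (SE 0.06), short of the fold limit. The list's median log2 fold change was 0.06 in SIT, 0.06 on the left and -0.01 on the right.

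Among 20 other glucocorticoid-induced genes, 19 were tested, and 2 passed the call rule in SIT, 1 in the left and 2 in the right hippocampus, all higher in ELE, beside 3.65%, 2.07% and 1.97% of all genes tested. Cdkn1a, the cell-cycle inhibitor p21, rose in both hemispheres. It was at 8.48, 20.6 and 7.15 CPM in left ELE and at 5.08, 4.42 and 6.74 CPM in left sedentary mice, and at 9.29, 10.1 and 9.35 CPM in right ELE against 4.34, 7.56 and 5.28 CPM, with no overlap on either side. Groups did not overlap for 10.7% of all genes tested on the left and 7.66% on the right. ELE was 2.22-fold higher on the left (log2 1.15, SE 0.38, edgeR adjusted p = 0.960) and 1.68-fold on the right (log2 0.75, SE 0.21, adjusted p = 0.9998). Over both hemispheres, which reuse these libraries, it was at log2 0.95 (SE 0.23, past the rule), with an adjusted p = 0.919 by edgeR and an adjusted p = 0.0382 by DESeq2; size factors, no filter and the replicate block gave adjusted values of 0.915, 0.0611 and 0.657. In the 5 SIT libraries compared the direction was the opposite (log2 -0.48, SE 0.22, not past the rule), and over all 8 it turned to 0.998 (SE 0.61, not past the rule), with 45.9 CPM in ELE library NT6.304. The 5 libraries were at 5.94, 6.53 and 7.8 CPM in ELE and at 10.5 and 8.37 CPM in sedentary libraries. Without ELE TG9.1.4 the left value was 0.54 and still past the rule, and without sedentary TG9.1.2 (1.03) or TG7.3.4 (1.11) it was not.

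Errfi1, a feedback inhibitor of the epidermal growth factor receptor, rose in SIT from 45.4 CPM ± 1.61 (n = 2) to 60.5 CPM ± 6.74 (n = 3; log2 0.41, SE 0.12, edgeR adjusted p = 0.905), and had log2 differences of 0.24 on the left (SE 0.11) and 0.25 on the right (SE 0.11), short of the fold limit. On the right, and over both hemispheres (log2 0.25, SE 0.08, edgeR adjusted p = 0.919), its unadjusted p was below 0.05. Bcl6, a transcriptional repressor, rose in SIT (log2 0.39, SE 0.16, edgeR adjusted p = 0.905), but lost its call among NT6 mice (0.07), over all 8 SIT libraries (0.29) and without TG7.4.1 (0.22), NT6.305 (0.42) or NT6.306 (0.37). Errfi1 likewise lost its call without NT6.303 (0.32) or NT6.305 (0.38), and kept it over all 8 SIT libraries (0.58) and among NT6 mice (0.64). Arl4d, a small GTPase, rose on the right (log2 0.75, SE 0.26, edgeR adjusted p = 0.9998), but not past the rule without ELE TG9.1.3 (0.40) or sedentary TG9.2.3 (0.63), and over both hemispheres it was past the rule at 0.72 (SE 0.25, edgeR adjusted p = 0.919) and also, at 0.45 (SE 0.20), without ELE TG9.1.4. The clock gene Per1 (0.27, -0.10 and -0.08 in SIT, left and right), Klf9 (0.18, 0.07 and 0.01) and Dusp1 (-0.20, -0.21 and -0.05), all rapid glucocorticoid targets, did not pass the rule. Over all 8 SIT libraries Klf9 was at 0.31 (SE 0.11, edgeR adjusted p = 0.4885), short of the fold limit. Its unadjusted p there was below 0.05, as for 9.07% of all genes tested. The list's median was 0.08 in SIT, 0.05 on the left and 0.01 on the right, beside medians of 0.00, 0.00 and -0.00 over all genes tested. Over all 8 SIT libraries 16 of the 19 were higher and 3 lower in ELE (median 0.29 beside 0.00), and 5 passed the rule, all higher, where 7.7% of all genes did. These were Errfi1 (0.58), Mt1 (0.82) and Mt2 (1.22), which encode metallothioneins, Cebpd (0.64) and Arl4d (2.10), with edgeR adjusted p-values of 0.403 to 0.522, and NT6.304 was the highest of the 8 libraries for each. Sedentary NT7.2.4 and NT7.2.3 were the lowest of the 8 for Mt1 (149.8 and 152.8 CPM), Mt2 (26.03 and 35.78 CPM) and Cebpd (17.64 and 24.33 CPM). In the 5 libraries compared, without these 3, the log2 differences were 0.06 for Mt1 (SE 0.17), 0.03 for Mt2 (SE 0.17), 0.14 for Cebpd (SE 0.22) and 0.44 for Arl4d (SE 0.24), none past the rule.

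Of 19 genes for hormones, their receptors and steroid enzymes, 12 were tested in SIT, 10 on the left and 11 on the right, and 0, 0 and 2 passed the call rule, beside 3.65%, 2.07% and 1.97% of all genes tested. Over all 8 SIT libraries Crhbp, which encodes a binding protein of corticotropin-releasing hormone, was past the rule and lower in ELE (log2 -4.32, SE 1.19), with 24.3 and 26.9 CPM in NT7.2.3 and NT7.2.4 and at most 0.782 CPM in the other 6 libraries, where 7.7% of all genes tested passed. Inhibitory neuron and microglial markers were past the rule there in 8 of 8 each, all lower in ELE. The part of those cells in the Crhbp value was not tested. On the right Avp, which encodes vasopressin, was at 0.554 CPM ± 0.241 in ELE and 0.15 CPM ± 0.059 in sedentary mice (log2 1.872, SE 0.70), and Cyp11a1, the first enzyme of steroid synthesis, was at 3.95 CPM ± 0.765 and 2.66 CPM ± 0.325 (log2 0.57, SE 0.24, n = 3 each), with an edgeR adjusted p = 0.9998 for both. Both were past the call rule, Avp on 5 to 54 reads a library and Cyp11a1 on 109 to 309, and each lost its call without ELE TG9.1.3 (1.46 and 0.42). Avp also lost it without sedentary TG9.1.1 or TG7.3.3 (1.65 and 1.79), and Cyp11a1 without any 1 of TG7.3.1, TG9.1.1 and TG7.3.3 (0.50 to 0.57). Pgr, the progesterone receptor, was at 23.9 CPM on average in SIT, and no gene tested in the list of other steroid receptors passed the rule in SIT, left or right.

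**Figure D5:**
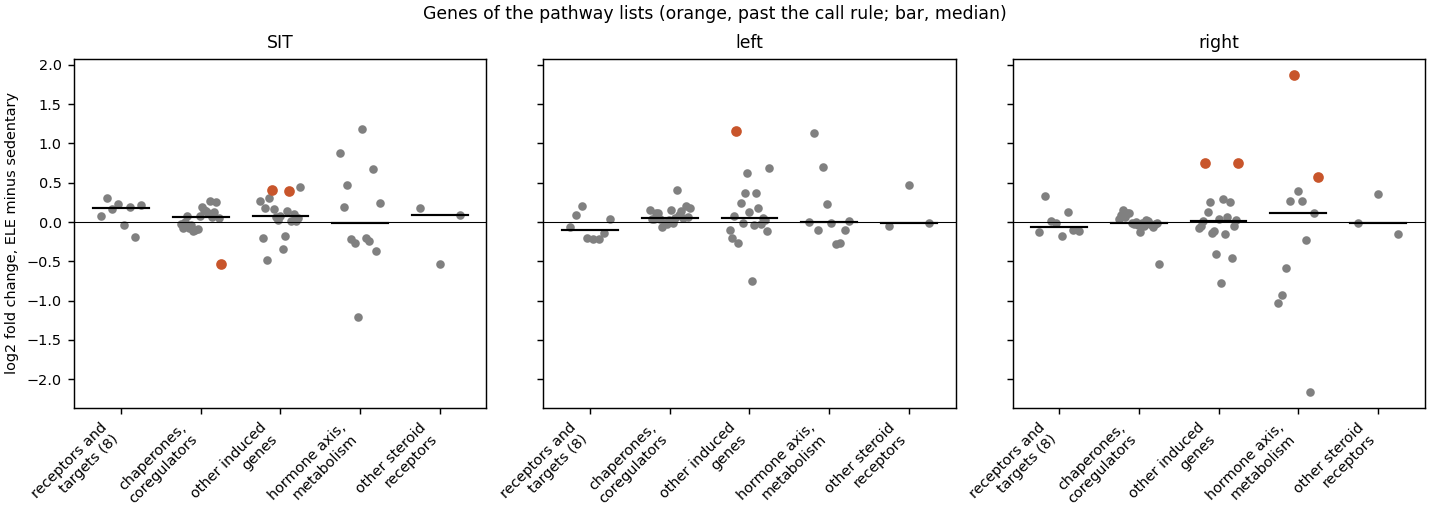
Log2 fold change of ELE over sedentary (vertical axis) in SIT, the left and the right hippocampus for the 8 receptor and target genes and the genes of the 4 pathway lists that were tested, 1 point per gene. Orange points passed the call rule, 3 in SIT, 1 on the left and 4 on the right, none of them among the 8, and bars are medians.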

How the data were processed

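Per the labels and the study's methods, the authors aligned read pairs to GRCm38 with STAR 2.7.3a, removed duplicates with Picard 1.87 and counted exonic pairs per gene by strand; the deposited values are raw counts. Columns are named by mouse, and each was given its group from the mouse list in the study's supplement. The SIT libraries compared are the 3 ELE and 2 sedentary whose mean normalized counts matched the study's lists (633 of 633 genes; 7 for the next of 24 subsets). Genes were kept by filterByExpr, scaled by TMM and tested with the edgeR 4.0.16 quasi-likelihood test, adjusted by Benjamini-Hochberg over all genes. CPM used TMM over 20 libraries, and RPKM divided by union exon length (GENCODE vM21). Alternatives were DESeq2 1.42.0, size factors, no filter, other libraries, each library left out, a replicate block and a pseudocount of 1. Scripts were tested on simulated data. Same-numbered ELE and sedentary mice correlated above 0.1 in 3 of 6 pairs, and differently numbered mice in 1 of 12. Numbers were not taken as pairs in the main fits, and only the replicate block used them. Labels number libraries as biological replicates. All 24 replicate pairs differed beyond counting noise (chi-square per gene at least 18.9). In another table, 24 columns matched no label and were not used. Intervals are 95% and cover the spread between libraries. Members and lists were chosen with earlier results of these data known. All 8 members are named in SIT, left and right, with list genes past the call rule (at most 10 per comparison) and the 2 genes most like each member.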

Additional observations from a re-analysis of the deposited data

How the results depend on the processing

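No member was called by edgeR with TMM, DESeq2, median-of-ratios size factors or no filter in SIT, left, right, both hemispheres or the difference between hemispheres, nor over all 8 SIT libraries or the NT6 mice alone. A replicate block on the first part of the mouse number also gave 0 members in the left, right, both hemispheres and the difference; under it Avp (1.83) and Cyp11a1 (0.56) lost their calls on the right. Cyp11a1 lost it without the filter (0.57). Over all 8 SIT libraries the direction turned for Nr3c1 (-0.10), Crhr1 (0.031) and Zbtb16 (-0.34), and among NT6 mice for Hsd11b1 (-0.29). A pseudocount of 1 left all 38 results with the same direction and side of the threshold. With 1 library left out, the count of members called was 0 to 1 in SIT, 0 to 2 on the left, 0 to 1 on the right, 0 to 1 for the difference and 0 to 0 over both hemispheres. A lone library in a group was then assumed to vary like the others. Log2 fold changes that turned spanned, in SIT, -0.19 to 0.38 for Hsd11b1, -0.0195 to 0.53 for Sgk1, -0.19 to 0.050 for Tsc22d3 and -0.016 to 0.49 for Zbtb16. On the left they spanned -0.0026 to 0.34 for Fkbp5, -0.14 to 0.0096 for Nr3c1, -0.39 to 0.15 for Tsc22d3 and -0.055 to 0.19 for Zbtb16. On the right they spanned -0.31 to 0.090 for Crhr1, -0.042 to 0.056 for Fkbp5, -0.12 to 0.13 for Sgk1 and -0.33 to 0.086 for Tsc22d3. Over both hemispheres they spanned -0.11 to 0.023 for Hsd11b1 and -0.11 to 0.022 for Zbtb16. For the difference they spanned -0.23 to 0.17 for Crhr1, -0.021 to 0.32 for Fkbp5, -0.044 to 0.23 for Nr3c1 and -0.30 to 0.32 for Tsc22d3. The cause was not tested. The SIT, left and right groups compared held only 2 or 3 libraries each, which limits the precision of every value.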

Other observations

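A pair of ELE libraries, picked out after their values were seen, stood at the extremes of several glucocorticoid-induced genes. SIT mouse NT6.304, which the study left out, had the highest level among 8 SIT libraries of Fkbp5 (97.9 CPM, the next 79.0) and of 11 of the 20 other induced genes, where 23.8% of the 14276 genes averaging 1 CPM or more were highest in it, among them Arl4d (109.6 CPM, the next 10.2), Cdkn1a (45.9 CPM, the next 10.5), Dusp1 (68.2 CPM, the next 16.4), Mt1 (664 CPM, the next 431) and Mt2 (255 CPM, the next 86.9). The same library was the lowest of the 8 for Per1 (46.0 CPM), Pdk4 (3.24 CPM) and Fam107a (332 CPM) of that list, and for Tsc22d3 (33.0 CPM), Nr3c1 (59.1 CPM) and Hsd11b1 (15.1 CPM). Left hippocampus mouse TG9.1.4 had the highest Fkbp5 (94.3 CPM) among the 12 libraries from 1 hemisphere, and the highest level of 7 of the 20, where 17.9% of 14129 genes were highest in it, among them Cdkn1a (20.6 CPM, the next 10.1), Mt1 (635 CPM, the next 463) and Mt2 (223 CPM, the next 137). It was the lowest of the 12 for Per1 (38.8 CPM), Ddit4 (33.2 CPM), Bcl6 (43.2 CPM) and Gjb6 (43.3 CPM) of that list and for Tsc22d3 (25.3 CPM). Plin4 (0.346 CPM on average over the 8 SIT libraries), which is 1 of the 11, and Lcn2 (0.0498 CPM) averaged below 1 CPM. The shares of all genes do not cover such genes. All values in this paragraph that set these libraries apart come from 2 libraries, with no test.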
